A study of Mus musculus with 6 samples.

Results

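The genes described here carry the transforming growth factor beta (TGF-beta) signal: the ligand genes Tgfb1 and Tgfb3, the receptor genes Tgfbr1 and Tgfbr2, the SMAD genes Smad3, Smad4 and Smad7, and the repressor genes Ski, Skil and Tgif1. They are 10 of the 24421 genes in the deposited expression table and were picked by their symbols, each of which stood in 1 row. Naive CD4 T cells from the spleens of mice labelled WT were polarised to Th17, a helper T cell type that secretes interleukin 17, in IMDM containing 10% fetal bovine serum. The treated group had 10 nM pemafibrate, a drug that activates the lipid-sensing receptor PPARalpha, in the medium until day 2, and the other group had vehicle; feeding with IMDM and serum followed for 2 days. Both groups had 3 samples, called here by their title numbers (vehicle 3, 4 and 7, pemafibrate 3, 7 and 8). The sources used here do not name strain, age or polarising cytokines, and whether TGF-beta was added to the cultures is not known here. Nothing in the labels ties the samples to separate animals or cultures, and the p-values therefore reflect a spread between samples that could be technical.

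TGF-beta is secreted in a latent form, released outside the cell, and bound by the type II receptor, which then activates the type I receptor. The active type I receptor phosphorylates SMAD2 and SMAD3, which join SMAD4 and act on genes in the nucleus, while SMAD7 blocks the receptor and SKI, SKIL and TGIF1 hold SMAD target genes down. In CD4 T cells TGF-beta favours regulatory T cells when it acts without inflammatory cytokines and Th17 cells when it acts with interleukin 6.

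Levels are in RPKM, which divides a gene's reads by its length and by the size of the library, so that different genes can be set side by side. The library sizes behind them, inferred here from the RPKM values, were 14935351 to 18322467 reads. All 8 general T cell markers, Cd3e and Cd4 among them, were expressed, summing to 1835 to 1919 RPKM in vehicle samples and to 1830 to 1900 RPKM after pemafibrate. The sum of the 8 Th17 markers, most of it Il17f, was 1892 to 2083 RPKM with vehicle and 1435 to 1721 RPKM after pemafibrate. Among these markers Il17a, Il17f, Il23r and Il1r1 were lower without overlap, Ccr6 was higher without overlap, and Rora and Batf overlapped; Il23r and Ccr6 had a limma adjusted p under 0.05. Over all samples the B cell markers summed to 5.18 to 6.23 RPKM, the myeloid to 5.81 to 10.6 RPKM, the CD8 T cell to 4.91 to 7.08 RPKM, the dendritic cell to 0.860 to 1.23 RPKM, the platelet to 0.656 to 1.66 RPKM and the stromal, mostly Pecam1, to 11.3 to 13.01 RPKM. All 4 red cell markers, the platelet marker Gp9 and the stromal marker Col3a1 were at 0, and these sums overlapped between the groups. Natural killer cell markers summed to 3.80 to 4.03 RPKM in vehicle samples and 2.57 to 2.85 RPKM after pemafibrate, nearly all of it Klre1, with Klra8 at 0. The part of the Th17 and natural killer marker differences in the values that follow was not tested.

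Ski, Tgif1, Smad3 and Tgfbr2 had slightly less RNA in every pemafibrate sample than in any vehicle sample. The pemafibrate mean of these 4 genes was 0.870 to 0.932 of the vehicle mean. The groups overlapped for the other members, Tgfb1, Tgfb3, Tgfbr1, Smad4, Smad7 and Skil. Levels of log2(RPKM + 0.5) were tested with limma over the 11360 genes whose mean reached 0.5 RPKM, with Benjamini-Hochberg adjustment. Of the 9 members tested, 0 passed an adjusted p of 0.05, a threshold that 0.352% of all tested genes passed (0.132% higher and 0.220% lower). Tgfb3, at a mean of 0.472 RPKM, was not tested by limma. Of the 9, 4 (44.4%) had an unadjusted limma p under 0.05, all lower after pemafibrate. Over all tested genes these shares were 4.90% lower, 4.76% higher and 9.67% in either direction. The groups of the same 4 did not overlap, which held for 7.31% of all tested genes lower, 7.67% higher and 15.0% in either direction. In 7 of 9 the log2 difference was below 0, against 47.4% of all tested genes, and the median log2 difference was -0.088 over the 9 against 0.0052 over all tested genes. The 10 genes were picked with earlier results of these samples known, so these counts describe the members and are not independent evidence. In bulk samples such as these, fewer cells of a type and less RNA per cell cannot be told apart.

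With voom on reads recovered from the RPKM values, Ski alone of the 10 members was called (adjusted p = 0.0435), in a test that called 1.25% of 11857 genes (0.464% higher and 0.784% lower). Tgfbr1, higher after pemafibrate, had an unadjusted p of 0.0415 by voom (adjusted p = 0.477), against 0.113 by limma. By voom 1141 of the 11857 genes had an unadjusted p under 0.05 in either direction. The authors' adjusted p for Tgfbr1 was 0.143. In the authors' deposited table Ski (adjusted p = 0.0218) and Smad3 (adjusted p = 0.0316) passed, as did 1.19% of its 24421 genes. These include 7599 genes at 0 in every sample, so this share is not directly comparable with those of limma and voom.

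**Figure D1:**
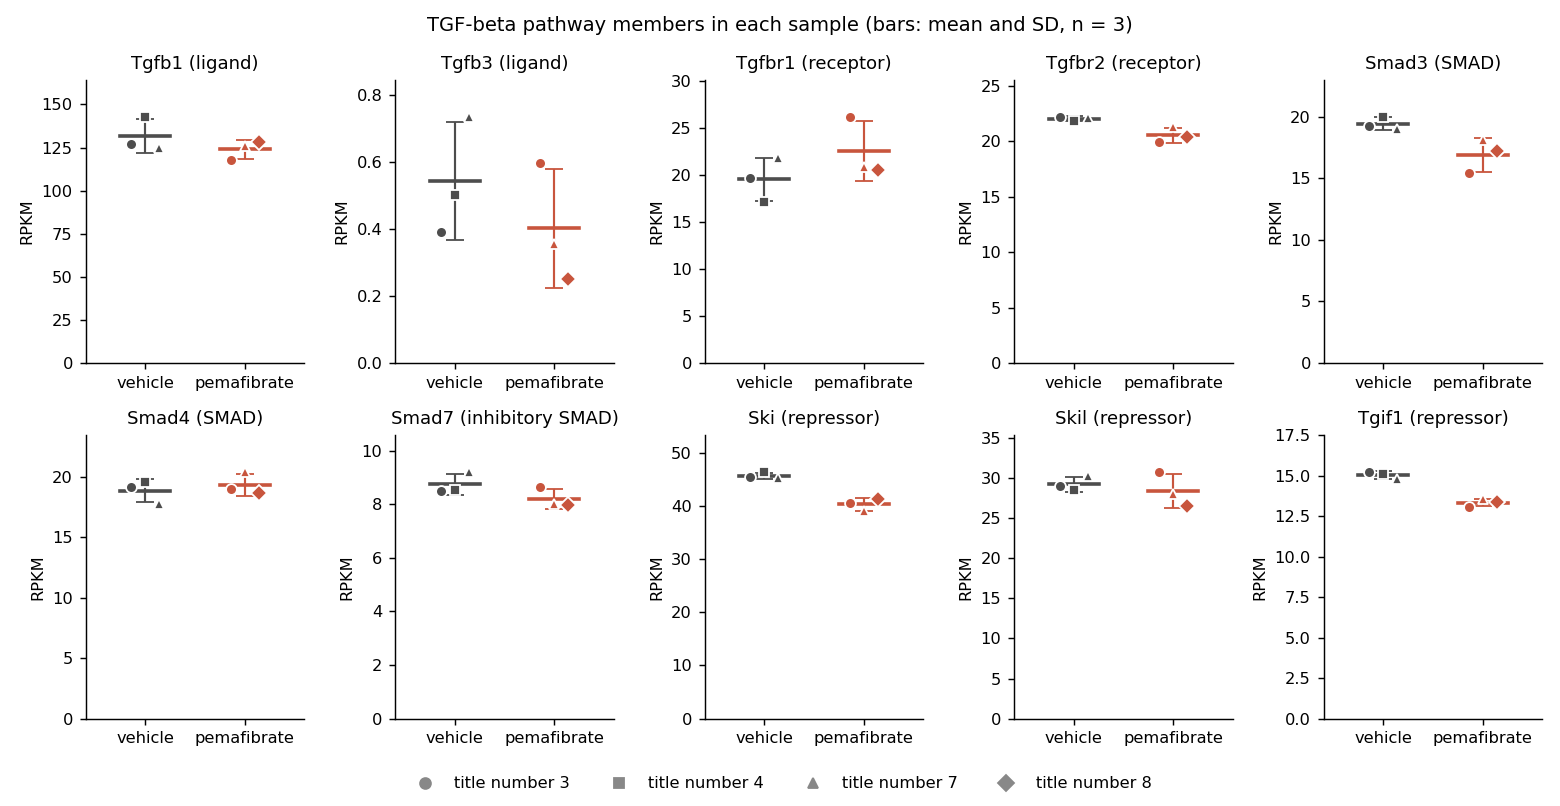
RPKM of the 10 genes in each sample, with the marker shape giving the title number; thick bars are group means and error bars SD (n = 3). Ski, Tgif1, Smad3 and Tgfbr2 are the panels in which every pemafibrate point lies under every vehicle point.

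The 10 genes covered a wide range of levels. Over the 6 samples the mean was highest for Tgfb1 at 128 RPKM, above 94.96% of the tested genes, and next for Ski at 43.03 and Skil at 28.8 RPKM. Tgfbr2 (21.3 RPKM), Tgfbr1 (21.1 RPKM), Smad4 (19.1 RPKM) and Smad3 (18.2 RPKM) followed with overlapping ranges. Within each sample Tgfbr2 lay above Smad3 and above Smad4, while the order of the other pairs changed between samples. Tgif1 (14.2 RPKM) and Smad7 (8.47 RPKM) lay lower, and Tgfb3 was lowest.

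Tgfb1 (chromosome 7, 25687002 to 25705077, GRCm38) encodes TGF-beta 1, the form that T cells mainly make. Its level was 127, 143 and 125 RPKM in vehicle samples (in the order 3, 4, 7, kept throughout) and 118, 126 and 128 RPKM in pemafibrate samples (in the order 3, 7, 8). The groups overlapped, with vehicle 4 highest and pemafibrate 3 lowest. The log2 difference was -0.084 ± 0.059 (SE, limma adjusted p = 0.752), and its 95% interval spans 0.857 to 1.04 times the vehicle level. It was -0.024 ± 0.049 without vehicle 4 and -0.049 ± 0.063 without pemafibrate 3. Tgfb3 (chromosome 12, 86056743 to 86079041), which encodes an isoform that Th17 cells can make, was barely detected. Its reads numbered 24, 29 and 43 for vehicle and 37, 18 and 15 for pemafibrate, or 0.392, 0.501 and 0.734 against 0.597, 0.356 and 0.251 RPKM. The groups overlapped, and with a voom log2 difference of -0.45 ± 0.33 (adjusted p = 0.736) no difference was detectable at this depth. Tgfb1 made up 99.4% to 99.8% of the summed RPKM of the 3 TGF-beta ligand genes in each sample, and Tgfb2 at most 0.0195%.

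Tgfbr1 (chromosome 4, 47353222 to 47414926) encodes the type I receptor kinase that phosphorylates SMAD2 and SMAD3. It stood at 19.7, 17.2 and 21.8 RPKM with vehicle and 26.2, 20.9 and 20.6 RPKM with pemafibrate. Pemafibrate 3 was highest, while the other pemafibrate samples lay within the vehicle range. The log2 difference was 0.20 ± 0.11 (limma adjusted p = 0.673), the highest of the 9 tested members, and it was 0.089 ± 0.094 without pemafibrate 3 and 0.11 ± 0.11 without vehicle 4. Tgfbr2 (chromosome 9, 116087695 to 116175363) encodes the type II receptor that binds the ligand. It stood at 22.2, 21.8 and 22.05 RPKM with vehicle and 19.9, 21.2 and 20.4 RPKM with pemafibrate. The vehicle samples were close together and all above the pemafibrate samples, the nearest by 0.544 RPKM (log2 difference -0.10 ± 0.041, limma adjusted p = 0.497). The ratio of Tgfbr1 to Tgfbr2 RPKM was 0.788 to 0.989 in vehicle samples and 0.983 to 1.32 after pemafibrate, and the groups overlapped (exact permutation test, two-sided p = 0.2, where 3 against 3 samples cannot go below 0.1).

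Smad3 (chromosome 9, 63646766 to 63757994) encodes a receptor-activated SMAD that binds DNA. Its level was 19.3, 20.0 and 19.02 RPKM in vehicle samples against 15.4, 18.1 and 17.2 RPKM after pemafibrate. All pemafibrate samples were lower, and pemafibrate 3 was lowest. The log2 difference was -0.20 ± 0.062 (95% interval -0.34 to -0.054, limma adjusted p = 0.337; voom adjusted p = 0.128), and -0.14 ± 0.050 without pemafibrate 3. Smad4 encodes the common partner of the receptor-activated SMADs, and its level was 19.2, 19.6 and 17.8 RPKM against 19.01, 20.4 and 18.6 RPKM. The groups overlapped (log2 difference 0.036 ± 0.055, limma adjusted p = 0.902), and the sign turned without vehicle 7 and without pemafibrate 7, while it was 0.064 ± 0.062 without vehicle 4 and 0.062 ± 0.061 without pemafibrate 8. Smad7, the inhibitory SMAD gene that TGF-beta induces as feedback, stood at 8.51, 8.52 and 9.19 RPKM against 8.63, 8.01 and 7.96 RPKM. Pemafibrate 3 lay within the vehicle range and the other pemafibrate samples under it (log2 difference -0.088 ± 0.059, limma adjusted p = 0.740), and the difference was -0.053 ± 0.064 without vehicle 7.

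Within the SMAD family, Smad3 and Smad4 supplied most of the transcripts in every sample. Smad3 made up 29.8 ± 0.224% of the summed SMAD RPKM in vehicle samples and 27.3 ± 1.46% after pemafibrate (SD, n = 3), and Smad4 28.9 ± 1.08% and 31.3 ± 0.721%. Smad2, which encodes the other receptor-activated SMAD of the TGF-beta branch, averaged 7.76 and 7.81 RPKM (limma adjusted p = 0.981), and the sign of its difference turned without vehicle 3 and without pemafibrate 7. The ratio of Smad3 to Smad2 was 2.59, 2.56 and 2.37 in vehicle samples against 2.03, 2.19 and 2.27 after pemafibrate. The groups did not overlap, and the exact two-sided permutation p was 0.1, the smallest possible. The ratio of Smad3 to Smad4 was 1.004, 1.02 and 1.07 against 0.810, 0.889 and 0.922, also without overlap and with the same p. The ratios of Smad3 to Smad7 (means 2.23 and 2.07, exact two-sided permutation p = 0.5) and of Smad3 to Ski (means 0.425 and 0.419, exact two-sided permutation p = 0.7) overlapped. With the receptor and Ski to Skil ratios, 6 ratios were compared, and 3 against 3 samples cannot pass 0.05 for any of them.

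**Figure D2:**
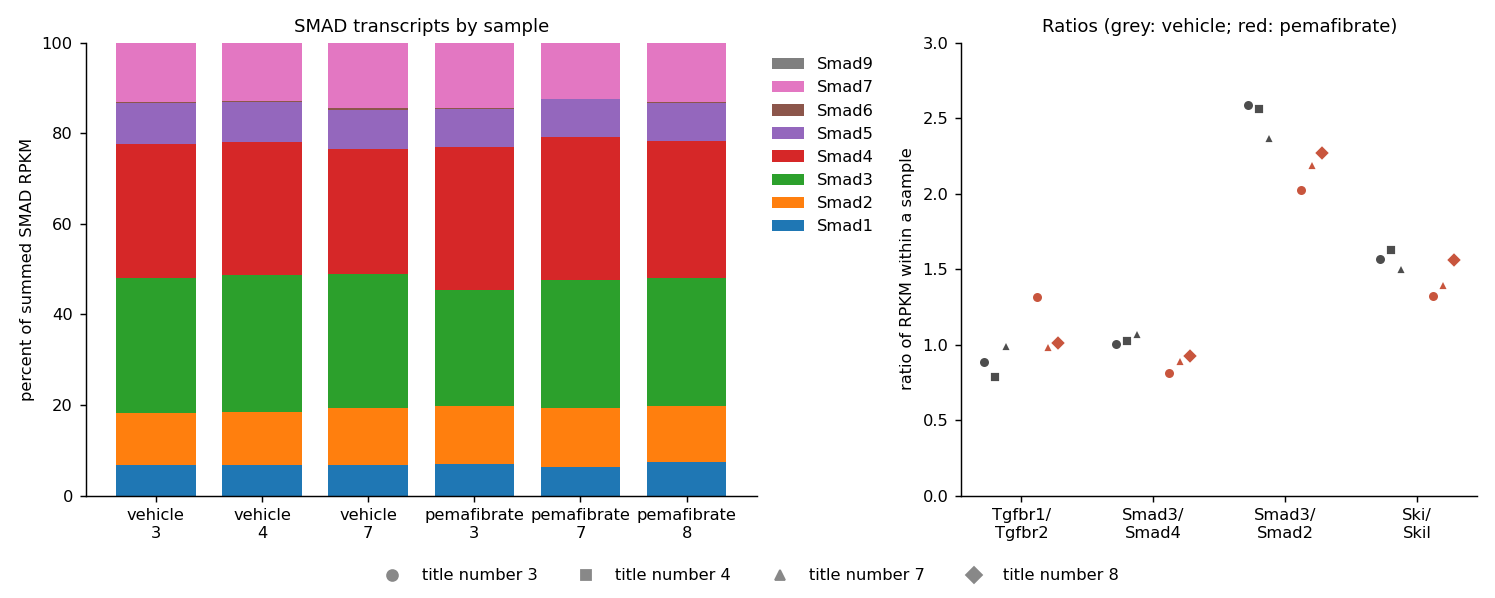
Left, the share of each SMAD gene in the summed SMAD RPKM of each sample, in percent; right, 4 ratios of RPKM within a sample, grey for vehicle and red for pemafibrate, with the marker shape giving the title number. The Smad3 to Smad4 and Smad3 to Smad2 ratios do not overlap between groups, and the Tgfbr1 to Tgfbr2 and Ski to Skil ratios do.

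Ski (chromosome 4, 155154075 to 155222535) encodes a co-repressor that binds SMAD complexes and recruits histone deacetylases. Its level was 45.5, 46.4 and 45.3 RPKM in vehicle samples against 40.6, 39.03 and 41.4 RPKM after pemafibrate. Both groups were tight, and 3.94 RPKM lay between their nearest samples. Ski had the smallest p of the members, with a log2 difference of -0.18 ± 0.037 (95% interval -0.26 to -0.092, limma adjusted p = 0.125), from 3186 to 4497 reads per sample. It passed with array weights (adjusted p = 0.0436) as with voom, and over 14 alternatives its adjusted p ran from 0.0435 to 0.673, with the pemafibrate level lower in each.

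Skil (chromosome 3, 31095058 to 31122923) encodes SnoN, a close relative of SKI whose gene is also a TGF-beta target. Its level was 28.95, 28.5 and 30.2 RPKM against 30.7, 28.0 and 26.5 RPKM. The pemafibrate samples spread to both sides of the vehicle samples (log2 difference -0.041 ± 0.058, limma adjusted p = 0.893), and the sign turned without pemafibrate 8, while it was -0.017 ± 0.066 without vehicle 7 and -0.098 ± 0.048 without pemafibrate 3. The ratio of Ski to Skil was 1.5002 to 1.63 in vehicle samples and 1.32 to 1.56 after pemafibrate, with overlap (exact two-sided permutation p = 0.2). Tgif1 (chromosome 17, 70844205 to 70853532) encodes a homeodomain repressor that binds SMAD2 and SMAD3. Its level was 15.2, 15.1 and 14.8 RPKM against 13.1, 13.5 and 13.4 RPKM. Every pemafibrate sample was lower, by at least 1.24 RPKM (log2 difference -0.17 ± 0.042, 95% interval -0.27 to -0.071, limma adjusted p = 0.205; voom adjusted p = 0.230). Tgif2, the related homeodomain gene, averaged 5.84 and 6.16 RPKM (limma adjusted p = 0.880).

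**Figure D3:**
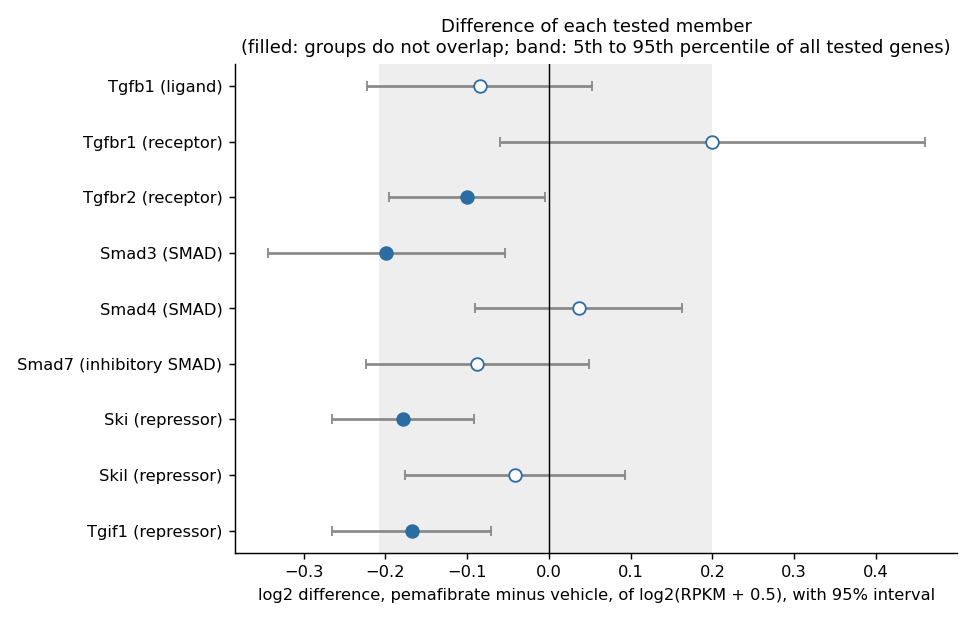
Log2 difference, pemafibrate minus vehicle, of the 9 tested members on the scale of log2(RPKM + 0.5), with 95% intervals from limma; the grey band runs from the 5th to the 95th percentile of all tested genes (-0.21 to 0.20). Filled points mark the 4 genes whose groups do not overlap, all of them below 0.

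The 250 bases before the annotated start of the 4 genes without overlap are printed because these genes were lower together. They come from RefSeq for GRCm38.p6, which gave such windows for 6 of the 10 members, and run 5′ to 3′ on the gene's strand. For Tgif1, which has several annotated starts, the outermost was taken. Capitals mark matches, on either strand, to GTCTAGAC (the palindrome bound by SMAD3 and SMAD4), CAGACA (a SMAD-bound repeat unit), GGCGC (a GC-rich SMAD-bound motif) or TGACAG (the site of TGIF proteins).
Ski (chr4:155222536-155222785, minus strand): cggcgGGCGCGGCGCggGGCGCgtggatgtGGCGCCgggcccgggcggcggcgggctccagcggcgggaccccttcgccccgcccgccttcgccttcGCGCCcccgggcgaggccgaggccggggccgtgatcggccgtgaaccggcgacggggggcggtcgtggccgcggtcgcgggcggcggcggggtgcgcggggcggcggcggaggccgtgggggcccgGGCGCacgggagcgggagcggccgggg
Tgif1 (chr17:70853533-70853782, minus strand): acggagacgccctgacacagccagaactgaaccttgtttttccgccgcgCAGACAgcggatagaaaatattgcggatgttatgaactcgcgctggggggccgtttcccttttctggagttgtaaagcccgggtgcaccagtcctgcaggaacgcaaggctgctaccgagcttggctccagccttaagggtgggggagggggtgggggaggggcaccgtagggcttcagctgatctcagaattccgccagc
Smad3 (chr9:63757995-63758244, minus strand): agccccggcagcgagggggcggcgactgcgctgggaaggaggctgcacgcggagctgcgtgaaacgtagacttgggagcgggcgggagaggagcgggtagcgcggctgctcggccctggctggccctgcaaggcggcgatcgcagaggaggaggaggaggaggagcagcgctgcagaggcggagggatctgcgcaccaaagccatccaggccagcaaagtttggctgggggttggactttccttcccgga
Tgfbr2 (chr9:116175364-116175613, minus strand): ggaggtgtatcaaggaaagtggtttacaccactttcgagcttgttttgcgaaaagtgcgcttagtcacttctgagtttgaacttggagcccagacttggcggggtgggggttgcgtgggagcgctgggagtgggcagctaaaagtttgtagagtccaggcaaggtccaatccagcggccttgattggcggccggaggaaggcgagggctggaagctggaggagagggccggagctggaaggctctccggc
The Ski window had 87.6% G and C against a median of 52.4% over 32536 windows of the same length. It held 7 starts of GGCGC on either strand, where a GGCGCC counts on both. At least 1 GGCGC was found in 32.2% of all windows and 7 or more in 1.08%, but among the 405 windows with at least 80% G and C, 34.6% held 7 or more. The Tgif1 window held 1 CAGACA, a motif in 17.0% of all windows. Of the Tgif1 windows not printed, 1 held 1 CAGACA, 1 held 1 GGCGC and the rest held none of the motifs. Windows of Tgfb1 and Tgfbr1, whose groups overlapped, held motifs too. Tgfb1 had 1 GGCGC, and Tgfbr1 had 3 starts of GGCGC in its outermost window and 1 CAGACA in its other window. The Smad3 and Tgfbr2 windows held none of the 4 motifs, of which GTCTAGAC is in 0.169% and TGACAG in 15.8% of all windows. A match describes these letters and is no sign of binding.

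The tested genes whose profile over the 6 samples lay nearest to that of Ski, by root mean square distance of centred log2(RPKM + 0.5), were Rnf215 (0.0106), Pml (0.0170) and Ablim1 (0.0192), against a median distance of 0.123 over all tested genes. They were chosen for nearness, so their small distances and lower pemafibrate levels follow from the choice. Their limma adjusted p were 0.248, 0.147 and 0.132. Pml, which encodes the organiser of PML nuclear bodies, stood at 35.6, 35.6 and 35.6 RPKM with vehicle and 31.6, 31.2 and 32.6 RPKM with pemafibrate, and Ablim1, which encodes an actin-binding protein, at 101, 102 and 98.9 against 91.7, 87.7 and 90.4 RPKM.

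Among genes that release or hold the ligand, Lrrc32 had the highest log2 difference. Of 19 genes in this list 8 were tested and limma called 0, with Lrrc32 higher and Furin lower at an unadjusted p under 0.05, and voom called Lrrc32. Lrrc32 encodes GARP, which holds latent TGF-beta 1 on the surface of regulatory T cells. Its level was 3.37, 3.50 and 2.62 RPKM in vehicle samples against 4.18, 5.74 and 5.71 RPKM after pemafibrate. All pemafibrate samples were higher (log2 difference 0.64 ± 0.14, limma adjusted p = 0.148; voom adjusted p = 0.0235). Foxp3, the lineage gene of regulatory T cells, named after its values were seen, lay higher too, at 3.99, 4.20 and 3.39 against 6.02, 7.47 and 8.69 RPKM (limma adjusted p = 0.0573; voom adjusted p = 0.00239). Ctla4, an inhibitory receptor gene that regulatory T cells also express, was lower without overlap, at 421, 420 and 436 against 392, 392 and 369 RPKM (limma adjusted p = 0.259; voom adjusted p = 0.0924). The part of regulatory T cells in the Lrrc32 difference was not tested. Furin, which encodes the protease that cleaves the TGF-beta precursor, stood at 241 ± 6.66 RPKM with vehicle and 216 ± 2.68 RPKM with pemafibrate (SD, n = 3), without overlap (log2 difference -0.15 ± 0.036, limma adjusted p = 0.175). Inhba, the gene for the activin A subunit, stood at 22.3, 22.8 and 20.5 against 22.6, 19.05 and 16.6 RPKM and overlapped (limma adjusted p = 0.679).

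In the receptor list limma called 0 of 10 tested genes, with Tgfbr2 lower and Tgfbr3 higher at an unadjusted p under 0.05, and voom called 0. Tgfbr3, which encodes the co-receptor betaglycan, stood at 14.6, 13.8 and 13.9 RPKM with vehicle and 14.96, 15.97 and 15.5 RPKM with pemafibrate (log2 difference 0.13 ± 0.047, limma adjusted p = 0.431). Of 6 tested SMAD genes limma and voom called 0, with Smad3 and Smad5 lower at an unadjusted p under 0.05. Among SMAD adaptors and coactivators limma and voom called 0 of 13, with Runx3 lower at an unadjusted p under 0.05. Runx3, which encodes a SMAD-binding transcription factor of T cells, stood at 40.6 ± 2.99 and 34.96 ± 2.19 RPKM without overlap (log2 difference -0.21 ± 0.066, limma adjusted p = 0.318). Kat2b and Crebbp, genes for histone acetyltransferases, had limma adjusted p of 0.731 and 0.809.

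Of 17 tested repressors and feedback inhibitors limma called 0 and voom called Ski. Those with an unadjusted p under 0.05 were the members Ski and Tgif1, counted above, and also Pmepa1 and Fkbp1a, all 4 lower. Over all tested genes, the measure for each list here, 4.90% were lower and 4.76% higher at that threshold. The median log2 difference of the 17 was -0.012. Pmepa1, a TGF-beta target whose product sequesters receptor-activated SMADs, stood at 32.03, 35.1 and 34.3 RPKM with vehicle and 31.4, 29.6 and 30.3 RPKM with pemafibrate. The nearest samples of its groups were 0.650 RPKM apart (log2 difference -0.15 ± 0.047, limma adjusted p = 0.337). Fkbp1a, the gene for FKBP12, which keeps the type I receptor inactive, stood at 461 ± 10.6 and 431 ± 9.97 RPKM (log2 difference -0.097 ± 0.039, limma adjusted p = 0.479). Ppm1a, the gene for a SMAD phosphatase, had a log2 difference of 0.060 ± 0.042, or 0.030 ± 0.043 without vehicle 7, and the list as a whole had 11 genes below 0 and 6 above. In the SMAD-independent branch limma and voom called 0 of 8 genes, with 1 higher at an unadjusted p under 0.05. Map3k7, which encodes the kinase TAK1, stood at 24.1 ± 0.736 and 25.7 ± 0.606 RPKM (limma adjusted p = 0.517), and Tab3 and Map3k4 had limma adjusted p of 0.590 and 0.835.

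The limma calls among these lists were all in genes that respond to TGF-beta in T cells: Ccr6, Ccr8 and Il9 rose and Id2 fell. Of 20 tested genes in that list, 6 of them members, limma called these 3 higher and 1 lower. Over all tested genes limma called 0.132% higher and 0.220% lower. By voom 4 were called higher and 2 lower, the member Ski among the lower, against 0.464% higher and 0.784% lower over all genes. The list was drawn up with earlier results of these samples known, so its calls are no independent evidence of a direction, and its median log2 difference was -0.026. Ccr6, a chemokine receptor gene of Th17 cells, stood at 22.8, 22.2 and 23.96 RPKM with vehicle and 34.8, 32.5 and 32.6 RPKM with pemafibrate (log2 difference 0.53 ± 0.047, limma adjusted p = 0.0104). Ccr8, another chemokine receptor gene, stood at 57.1, 57.2 and 64.5 and 87.7, 89.9 and 83.6 RPKM (log2 difference 0.55 ± 0.056, limma adjusted p = 0.0147). Il9, the interleukin 9 gene, stood at 48.9, 42.3 and 35.4 and 78.0, 77.6 and 73.6 RPKM (log2 difference 0.86 ± 0.10, limma adjusted p = 0.0314). Every pemafibrate sample was above every vehicle sample for these 3 genes. Id2, which encodes an inhibitor of E protein transcription factors, stood at 128, 126 and 122 and 102, 102 and 98.9 RPKM (log2 difference -0.32 ± 0.035, limma adjusted p = 0.0216). Without pemafibrate 7 all 4 calls were lost (adjusted p 0.0641 to 0.150). Calls were also lost without vehicle 3 for Ccr6 (0.0748), Ccr8 (0.0915) and Id2 (0.123), without vehicle 4 for Ccr8 (0.0826), Id2 (0.0995) and Il9 (0.0995), without pemafibrate 3 for Il9 (0.0782), and without pemafibrate 8 for Id2 (0.0683) and Il9 (0.0856). With no filter Ccr8 (0.0792), Id2 (0.0552) and Il9 (0.117) did not pass, and all 4 directions held throughout.

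**Figure D4:**
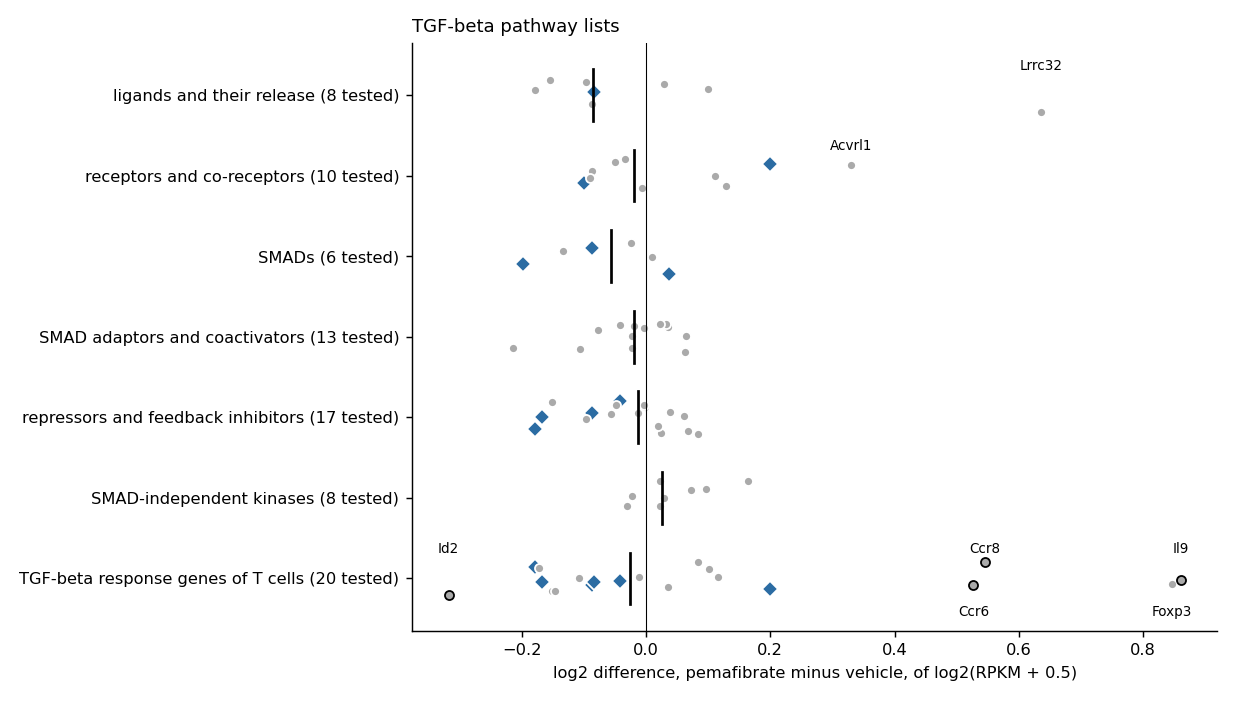
Log2 difference, pemafibrate minus vehicle, of every tested gene of 7 TGF-beta lists, on the scale of log2(RPKM + 0.5); blue diamonds are members, grey points other genes, black edges mark a limma adjusted p under 0.05, and bars are list medians. The points with black edges are Ccr6, Ccr8, Il9 and Id2, all among the response genes, and the list medians lie between -0.086 and 0.026.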

How the data were processed

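Libraries of 6 samples, grouped by their treatment label, were prepared for messenger RNA with a stranded kit, per the labels' protocols. The submitters' processing notes name HISAT2 2.1.0, featureCounts 1.4.6, Trimmomatic 0.35, edgeR and bcl2fastq, with the builds GRCm38 and mm10. Annotation and strand setting of the counting are not given in the sources used here. Tgfbr1, Tgfbr2, Smad3 and Smad7 each overlap 1 RefSeq lncRNA gene, whose reads could then be counted with theirs. The authors deposited RPKM per gene and sample. Their deposited table also holds a p-value, an adjusted p-value and a log2 fold change, and of these only the adjusted p-values are printed. The authors' rank column, an other kind of value, was not used.

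The test on log2(RPKM + 0.5) used limma 3.58.1 (R 4.3.3) with a trended prior variance and no further scaling, for genes whose mean reached 0.5 RPKM; the pseudocount understates changes of low genes. Log2 differences are pemafibrate minus vehicle. The RPKM steps gave whole reads for 100% of the 16822 genes above 0, within 0.0001 of a whole number, and voom used those with a mean of 10 reads or more. A single read in 2000 bases was worth 0.0335 RPKM or less, and read numbers carry counting error. Ratios were compared by exact permutation tests (scipy 1.17.1). The members and lists were chosen with earlier results of these data known. Named genes are the members, any called gene and the 3 smallest p of each list, and the 3 nearest profiles to the member with the smallest p; others were named after their values were seen, and 1 gene of the response list is not reported here and was left out of that list's counts. The procedure was tested on simulated data. Alternatives were pseudocounts of 0.1 and 1, no filter, a filter at 2 RPKM, median ratio scaling, array weights, the title number as a block, voom, and leaving out each sample. Figures were drawn with matplotlib 3.10.9.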

Additional observations from a re-analysis of the deposited data

How the results depend on the processing

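Across 14 alternatives the 10 members gave 129 log2 differences, of which 124 kept their direction and side of the threshold, 2 newly passed (Ski with voom and with array weights) and 3 turned sign. With 1 sample left out, Smad4 ran from -0.0042 to 0.064, Skil from -0.098 to 0.0061, Smad1 from -0.065 to 0.0065 and Smad2 from -0.029 to 0.032. Of 350 values for 25 other named genes, 323 kept both, 4 newly passed, 20 no longer passed and 3 turned sign. Called members numbered 0 in the reported fit, 1 with voom, 1 with array weights and 0 without any single sample. Over all genes limma called 40, against 7 with no filter, 140 with array weights, 148 with voom, and 0 to 25 with 1 sample left out. The 0 came without pemafibrate 7, when 771 genes had an unadjusted p under 0.05 by limma. Counts without the others were 2 (vehicle 3), 8 (vehicle 4), 18 (vehicle 7), 25 (pemafibrate 3) and 15 (pemafibrate 8). With the title number as a replicate block limma called 0 genes (653 at an unadjusted p under 0.05) and 0 members, and Ccr6, Ccr8, Id2 and Il9 had adjusted p of 0.156, 0.137, 0.271 and 0.137. Only numbers 3 and 7 occur in both groups, so vehicle 4 and pemafibrate 8 add nothing to this contrast and its power is low. Whether the shared numbers pair the samples is not known. Deviations from the group means correlated at 0.030 for number 3 and -0.0083 for number 7 across 11360 genes. Samples of unlike number correlated at -0.22 to 0.199. Deviations of 3 samples sum to 0 within a group, so these correlations cannot decide the pairing. Apart from the reported value, Tgfb3 could be fitted only with no filter, with voom and without pemafibrate 8 (-0.092 ± 0.22). At 15 to 43 reads per sample it is limited by depth, while the other members had at least 531 reads. The cause of these shifts was not tested.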

Other observations

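The activin and bone morphogenetic protein arms of the TGF-beta superfamily were also expressed. Acvrl1, the gene for the receptor ALK1, stood at 2.55, 3.18 and 3.98 RPKM with vehicle and 4.68, 4.31 and 3.51 RPKM with pemafibrate, and the groups overlapped (log2 difference 0.33 ± 0.15, limma adjusted p = 0.565), which was 0.19 ± 0.14 without vehicle 3. Acvr2a, an activin type II receptor gene, stood at 4.94, 4.71 and 4.95 against 5.69, 5.17 and 5.04 RPKM, without overlap (limma adjusted p = 0.706). Acvr1b, the gene for an activin type I receptor, stood at 10.8 ± 1.04 and 10.7 ± 0.533 RPKM (SD, n = 3, limma adjusted p = 0.988). Bmpr2, a type II receptor gene for bone morphogenetic proteins, stood at 3.40 ± 0.0261 and 3.16 ± 0.136 RPKM without overlap (limma adjusted p = 0.782). Of the SMADs of the bone morphogenetic protein arm, Smad5 stood at 5.82, 5.79 and 5.56 against 5.10, 5.29 and 5.13 RPKM, also without overlap (log2 difference -0.13 ± 0.057, limma adjusted p = 0.516), and Smad1 overlapped (limma adjusted p = 0.955).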
